A study of Nicotiana tabacum with 16 samples.

Results

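A neighbourhood of 301 gene models in ID group 19 of the tobacco count table was described, out of 63697 gene models in all. Its members are the gene models of that ID group with serial numbers 29500 to 32500, and they were chosen by the measured values of a small run in the middle: the gene models 30530 to 30590 are near absent in roots of both genotypes that carry nic1/nic2. Serial numbers give the order of identifiers in the table, and whether they follow positions on a chromosome was not given in the sources used here. Of the members, 225 passed the filter on low counts and were tested, 27 had counts but did not pass, and 49 had no count in any library.

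The study sequenced root transcripts of Nicotiana tabacum in 16 libraries. The genotypes were the flue-cured cultivar K326 (n = 4), K326 with nic1/nic2 (n = 3), K326 with myc2a (n = 5) and K326 with nic1/nic2/myc2a (n = 4), called the triple recessive below. These lines are described as nearly isogenic, so the recessive genotypes share the K326 background but may differ from it beyond the named alleles. All plants were grown in pots, decapitated (topped) at flowering and sampled 18 h later, so topping is shared by every group. Roots were taken from 3 to 5 plants of each genotype, which matches the numbers of libraries, but no label ties a library to a plant, so p-values measure the spread between these libraries.

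Nicotine is made in tobacco roots and carried to the leaves, and topping stimulates its synthesis through jasmonate. The loci Nic1 and Nic2 set the activity of the nicotine genes. Nic2 is known to hold a cluster of ERF transcription factor genes, part of which is deleted in the recessive nic2 allele. MYC2a encodes a bHLH protein that acts in the jasmonate response. The identifiers in the table were not paired with gene names (0 matched the reference gene table), so no member can be given a role, and whether members belong to Nic2 was not analysed here. No sequence was printed for the same reason.

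Depth ranged from 32.2 M to 40.9 M counts in most libraries and was 71.8 M in K326 replicate 2. Levels are given as CPM, counts scaled to a common library size with factors from the trimmed mean of M values. A count of 0 allows a level of up to 0.0432 to 0.0907 CPM in a single library (3 counts), for counting error only. CPM is not divided by gene length, so levels are compared between libraries and not between gene models.

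In the run at the centre of the neighbourhood, 12 consecutive gene models from 30530 to 30640 gave 376 counts in the 4 K326 libraries and 225 in the 5 myc2a libraries, but 0 in the 3 nic1/nic2 libraries and 2 in the 4 nic1/nic2/myc2a libraries. Their summed level was 2.76, 1.80, 2.62 and 1.44 CPM in K326 replicates 1 to 4. In myc2a replicates 1 to 5 it was 0.829, 1.45, 2.12, 0.787 and 0.829 CPM. All 9 libraries without nic1/nic2 had counts, and among the 7 with it only nic1/nic2/myc2a replicate 4 did, at 0.0603 CPM. In root RNA, fewer cells with a transcript and less of it per cell cannot be told apart. These values chose the neighbourhood and are a description, with no test. The summed level was at least 71.9-fold lower in nic1/nic2 than in K326, with 3 counts over the group as the floor. In nic1/nic2/myc2a it was 141-fold lower (95% counting interval 38.7 to 1166) than in K326 and 81.6-fold lower (22.3 to 678) than in myc2a.

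Just before the run, Ntab19g030520-1.1 had 6 counts, all in myc2a replicate 2. Of the 12 gene models, 6 carried all the counts and the others had none in any library. Ntab19g030590-1.1 was at 1.64, 0.619, 1.38 and 0.302 CPM in K326 replicates 1 to 4 and at 0.467, 0.774, 1.03, 0.350 and 0.570 CPM in myc2a replicates 1 to 5. In nic1/nic2 it had no counts, a level 31.3-fold or more below K326, and its only counts with nic1/nic2/myc2a were the 2 in replicate 4. The K326 and myc2a ranges overlapped over most of their width, and no library with nic1/nic2 came near either of them.

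Ntab19g030530-1.1 was at 0.273, 0.446, 1.02 and 0.554 CPM in K326 replicates 1 to 4 and at 0.207, 0.465, 0.272, 0.379 and 0.259 CPM in myc2a replicates 1 to 5. It had no counts in any of the 7 libraries with nic1/nic2, and was lower than in K326 by 18.9-fold or more in nic1/nic2 and by 24.7-fold or more in the triple recessive. Ntab19g030530-1.1 and Ntab19g030590-1.1 are the members that met a definition of near absence: past the threshold against K326, lower by 16-fold or more, and below 0.5 CPM throughout the genotype. Both met it in each genotype with nic1/nic2. Outside it, Ntab19g030580-1.1 was also at 0 there but was not past the threshold. Over all gene models, 5 did so in both genotypes, and the other 3 were Ntab07g012920-1.1, Ntab07g012960-1.1 and Ntab16g016700-1.1. At these low counts the calls were not stable: that of Ntab19g030530-1.1 was lost under 8 of 24 alternatives in nic1/nic2 and 8 of 23 in the triple recessive, and that of Ntab19g030590-1.1 under 4 and 7 of 25. In nic1/nic2 both were lost without nic1/nic2 replicate 2, and Ntab19g030530-1.1 also without nic1/nic2 replicate 3 or K326 replicate 2, 3 or 4. In the triple recessive both were lost without its replicate 1 or 2 or K326 replicate 3, Ntab19g030530-1.1 also without its replicate 4 or K326 replicate 2 or 4, and Ntab19g030590-1.1 also without K326 replicate 1.

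The other members of the run were sparser. Ntab19g030580-1.1 was at 0.382, 0.547, 0 and 0.428 CPM in K326 and at 0.156, 0.103, 0.598, 0.0583 and 0 CPM in myc2a, so that 1 library of each group was also at 0 there. It was at 0 in all 7 libraries with nic1/nic2, 13.2-fold or more below K326 in nic1/nic2, and did not pass the threshold. Ntab19g030560-1.1 had 22 counts over the K326 libraries, none of them in replicate 4, and 2 over the myc2a libraries. Ntab19g030620-1.1, just past the range of the choosing rule, had 14 counts in K326, with some in each library, and 8 in myc2a, all in replicate 3. Ntab19g030550-1.1 had 8 counts in K326 and 2 in myc2a. Ntab19g030540-1.1 and Ntab19g030570-1.1 had no count in any library, so their state cannot be read from root RNA.

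**Figure D1:**
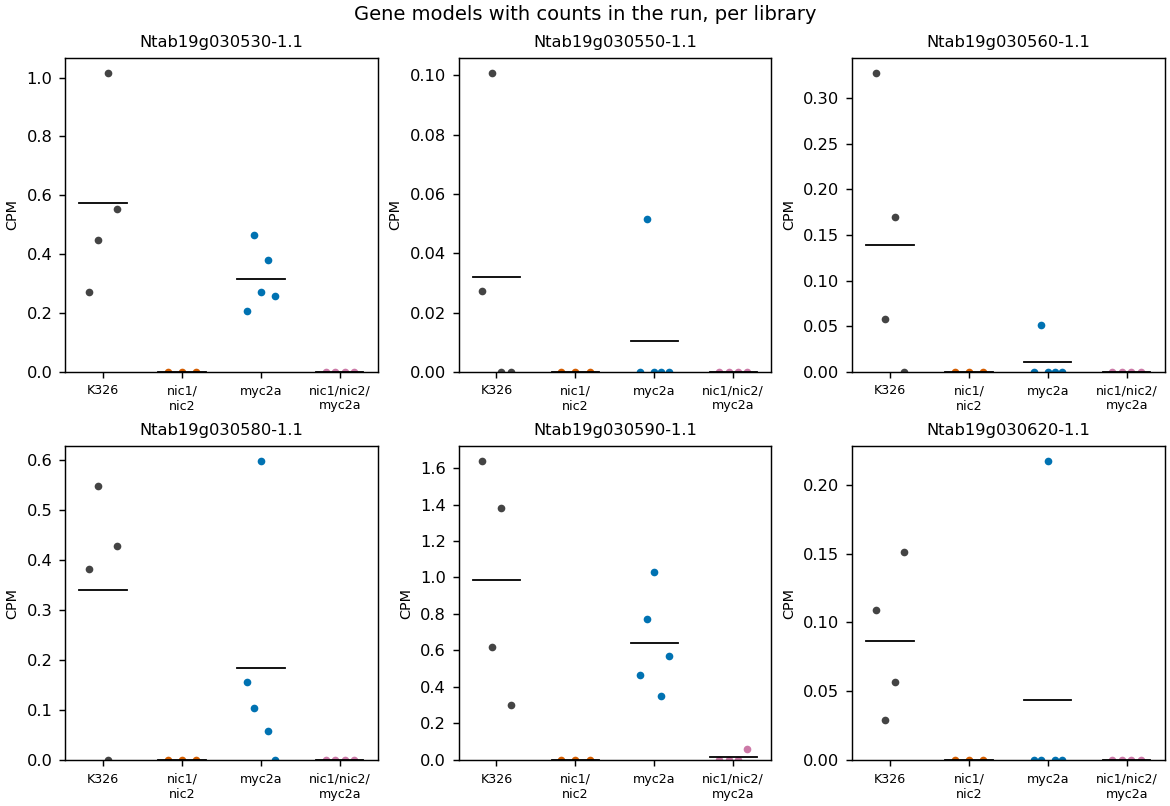
Level in CPM (vertical axis, linear, a scale of its own in each panel) of the 6 gene models of the run that had counts, by genotype, with 1 point per library and a bar at the group mean. All points of nic1/nic2 are at 0, as are those of nic1/nic2/myc2a except 1 of Ntab19g030590-1.1 at 0.0603 CPM.

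On the lower side of the run the nearest members with a mean of at least 1 CPM were Ntab19g030450-1.1, Ntab19g030470-1.1 and Ntab19g030490-1.1, and on the upper side Ntab19g030650-1.1, Ntab19g030660-1.1 and Ntab19g030670-1.1. Ntab19g030650-1.1 averaged 17.5 ± 2.73 CPM (SD, n = 4) in K326 and 16.1 ± 1.28 in myc2a (n = 5), beside 17.6 ± 4.08 in nic1/nic2 (n = 3) and 18.2 ± 2.35 in nic1/nic2/myc2a (n = 4). Its groups overlapped, and its log2 fold change was 0.01 ± 0.16 (SE) in nic1/nic2 and 0.05 ± 0.15 in the triple recessive against K326. Ntab19g030490-1.1 was at 11.1 ± 1.88 CPM in K326, and the other genotypes had higher means of 17.6 ± 4.83 (myc2a), 17.3 ± 1.07 (nic1/nic2) and 18.5 ± 3.39 CPM (nic1/nic2/myc2a). None of the 6 flanking members passed the threshold in any of these comparisons. Between Ntab19g030490-1.1 and the run, the sparse Ntab19g030500-1.1 had 10 counts in K326 and 18 in myc2a. It had 8 with nic1/nic2, all in 1 library at 0.223 CPM, and 10 with nic1/nic2/myc2a. It thus kept some counts with nic1/nic2 at levels like those of the sparser members of the run, though the other nic1/nic2 libraries were at 0.

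Taken over wider stretches, the neighbourhood kept its K326 level. Below the run, the median of 68 members with a mean of at least 1 CPM was at 99.2 to 109% of the K326 mean in nic1/nic2 libraries and, in the triple recessive, at 102 to 110%. Above the run, 130 members were at 96.5 to 99.98% and 97.3 to 104%. The myc2a libraries lay at 97.9 to 104% below and 99.0 to 103% above it, and the K326 libraries themselves at 97.0 to 102% and 99.9 to 101%. Neither side was lowered as a whole. In nic1/nic2 the median log2 ratio, averaged over libraries, was 0.07 ± 0.07 (SD, n = 3) below the run and -0.02 ± 0.03 above it. A median over so many members does not show shorter stretches. Ntab19g030820-1.1 was at 9.11 to 16.2 CPM in K326 and 3.52 to 3.99 in nic1/nic2. Ntab19g030840-1.1 was at 15.6 to 30.9 CPM in K326 and 6.18 to 9.51 in nic1/nic2. Neither was called, and in nic1/nic2/myc2a both overlapped K326.

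**Figure D2:**
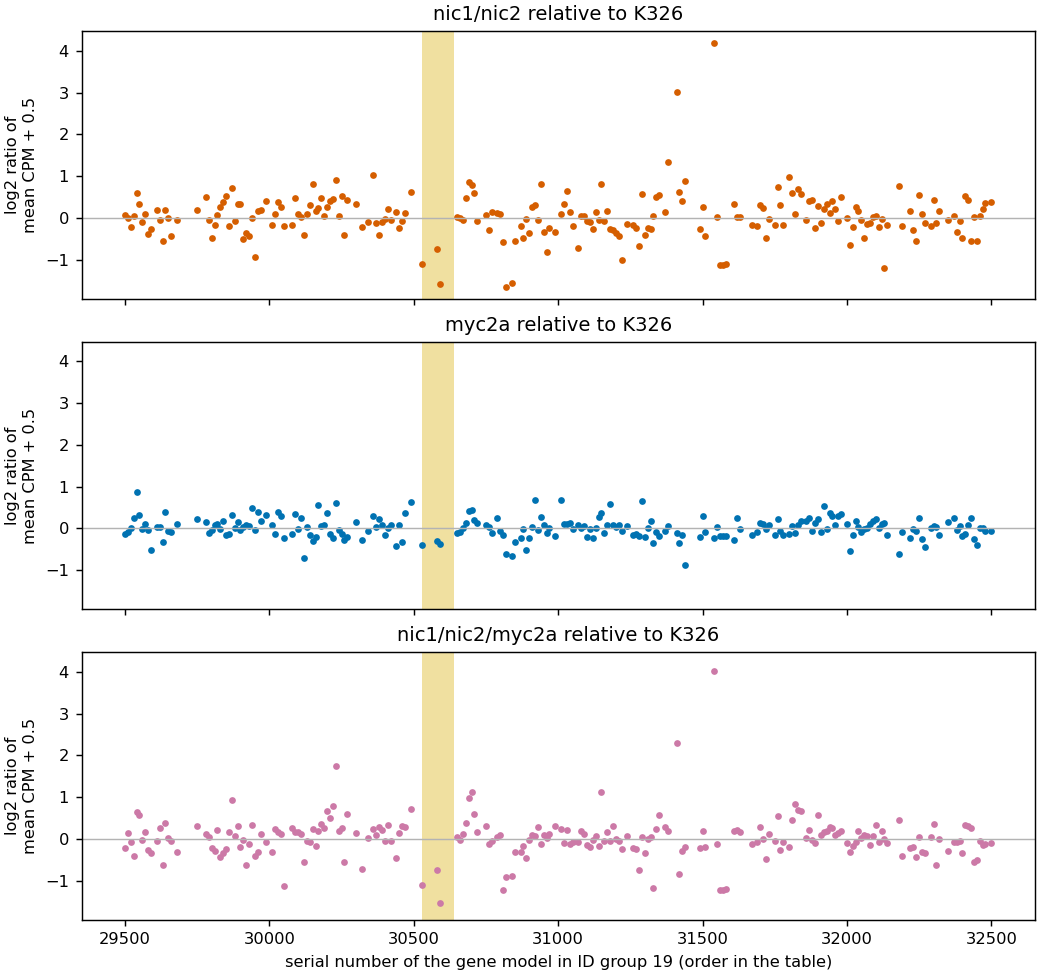
Log2 ratio of mean CPM plus 0.5 to K326 (vertical axis) against the serial number of the gene model (horizontal axis), for members with a mean of at least 0.1 CPM over the genotype means, with 1 panel per recessive genotype and the run from 30530 to 30640 shaded. Both genotypes with nic1/nic2 have low points in the run, high points at 31410 and 31540 and low points at 31560 to 31580, and the myc2a panel stays nearer to 0. Other points also lie away from 0, among them low points at 30820 and 30840 in nic1/nic2.

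Against K326, edgeR's quasi-likelihood test called 8 members in nic1/nic2 (3 higher, 5 lower) and 9 in the triple recessive (3 higher, 6 lower) at an adjusted p of 0.05. The share of all 43009 gene models called was 0.918% and 0.295%. The neighbourhood was chosen on these contrasts, so nothing is read from the counts, and no p is given for their members. In all 11 members were called in either genotype and 6 in both: the 2 near absent gene models, Ntab19g031540-1.1, and Ntab19g031560-1.1, Ntab19g031570-1.1 and Ntab19g031580-1.1. Beside the run, these calls lay between 31540 and 31580 in the order, where Ntab19g031550-1.1 was not called. With nic1/nic2 the count of called members was 3 without nic1/nic2 replicate 2 and 4 without nic1/nic2 replicate 3. With nic1/nic2/myc2a it was 5 without K326 replicate 3 or without nic1/nic2/myc2a replicate 1 or 2.

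Ntab19g031540-1.1 had the largest rise of the members called. It was at 0.109, 0.389, 0.282 and 0.151 CPM in K326 replicates 1 to 4 and at 0.156, 0.206, 0.217, 0.0583 and 0 CPM in myc2a replicates 1 to 5. With nic1/nic2 it was at 13.3, 11.7 and 13.4 CPM, and with nic1/nic2/myc2a at 7.83, 12.7, 14.3 and 11.1 CPM. Each of the 7 libraries with nic1/nic2 was thus far above all 9 others. The log2 fold change was 5.69 ± 0.46 (SE) in nic1/nic2 and 5.53 ± 0.45 in the triple recessive against K326, and 6.45 ± 0.45 in nic1/nic2/myc2a against myc2a. It was past the threshold in each of these comparisons under all 25 alternatives run.

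Ntab19g031550-1.1, which follows it in the order, ranged from 25.7 to 30.1 CPM in K326, 25.4 to 33.3 in myc2a, 25.2 to 35.5 in nic1/nic2 and 19.2 to 37.6 in the triple recessive, with overlapping groups and no call. After it came Ntab19g031560-1.1, Ntab19g031570-1.1 and Ntab19g031580-1.1, which were lower in each library with nic1/nic2 than in all libraries without. Ntab19g031570-1.1 was at 120, 78.6, 127 and 104 CPM in K326 replicates 1 to 4 and at 78.5, 110, 93.0, 86.6 and 104 CPM in myc2a replicates 1 to 5. With nic1/nic2 it was at 56.4, 43.9 and 47.8 CPM and with nic1/nic2/myc2a at 58.9, 33.1, 45.8 and 46.5 CPM. The lowest library without nic1/nic2 was above the highest with it, and the group mean was 45.9% of K326 in nic1/nic2, 42.8% in nic1/nic2/myc2a and 87.9% in myc2a. Its log2 fold change against K326 was -1.12 ± 0.20 (SE) and -1.22 ± 0.18. The call in nic1/nic2 was lost for Ntab19g031570-1.1 without nic1/nic2 replicate 2 or 3, and for its neighbours without replicate 2, with log2 fold changes between -1.26 and -1.03 over all alternatives of the 3 gene models. In nic1/nic2/myc2a the calls of all 3 held under each of the 25 alternatives.

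The counts of these 3 gene models moved as 1 measurement. The ratio of Ntab19g031560-1.1 to Ntab19g031570-1.1 stayed between 0.765 and 0.782 over the 16 libraries, a coefficient of variation of 0.585%, where independent counting alone would give 3.02%. The ratio of Ntab19g031570-1.1 to Ntab19g031580-1.1 lay between 1.41 and 1.46, with 0.778% against 3.11%. Their values are therefore not independent of each other, and the lower calls in both genotypes stand for fewer than 5 separate measurements. Overlap of these gene models and shared reads of near-identical copies were not tested, and their levels are uncertain to that extent. Among 652 pairs of members up to 5 places apart with a mean of at least 50 counts, the only other pair below counting error was Ntab19g032480-1.1 with Ntab19g032500-1.1 (0.868% against 4.45%), and the median of the ratio of chi-square to its degrees of freedom was 19.8.

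Ntab19g031410-1.1 was at 2.51, 1.79, 1.41 and 0.604 CPM in K326 replicates 1 to 4 and at 1.04, 0.878, 0.869, 0.583 and 3.73 CPM in myc2a replicates 1 to 5. In nic1/nic2 it was at 9.86, 18.7 and 20.2 CPM and in nic1/nic2/myc2a at 19.3, 7.76, 7.78 and 3.74 CPM. The highest myc2a library lay just below the lowest of nic1/nic2/myc2a, and the spread within nic1/nic2/myc2a was wide. The log2 fold change against K326 was 3.36 ± 0.61 (SE) in nic1/nic2 and 2.61 ± 0.58 in the triple recessive, the second not past the threshold. The call in nic1/nic2 was lost without nic1/nic2 replicate 3.

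Among the members tested, 10 had all 7 libraries with nic1/nic2 on one side of all 9 without. Of these, 5 were higher and 5 lower, where the share of all gene models was 0.214% and 0.17%. The lower ones were Ntab19g030530-1.1 and Ntab19g030590-1.1, whose values chose the neighbourhood, and the jointly moving Ntab19g031560-1.1, Ntab19g031570-1.1 and Ntab19g031580-1.1. Nothing is therefore read from these counts. Apart from members already described, those without overlap were Ntab19g030210-1.1, Ntab19g030270-1.1 and Ntab19g031830-1.1, all higher and all changed by less than those above. Ntab19g031830-1.1, named after its values were seen, was at 8.46 to 11.8 CPM in K326, 9.15 to 12.5 in myc2a, 13.2 to 20.2 in nic1/nic2 and 14.2 to 18.1 in nic1/nic2/myc2a. It did not pass the threshold against K326 in either genotype (log2 fold change 0.71 ± 0.17 and 0.72 ± 0.16, SE).

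**Figure D3:**
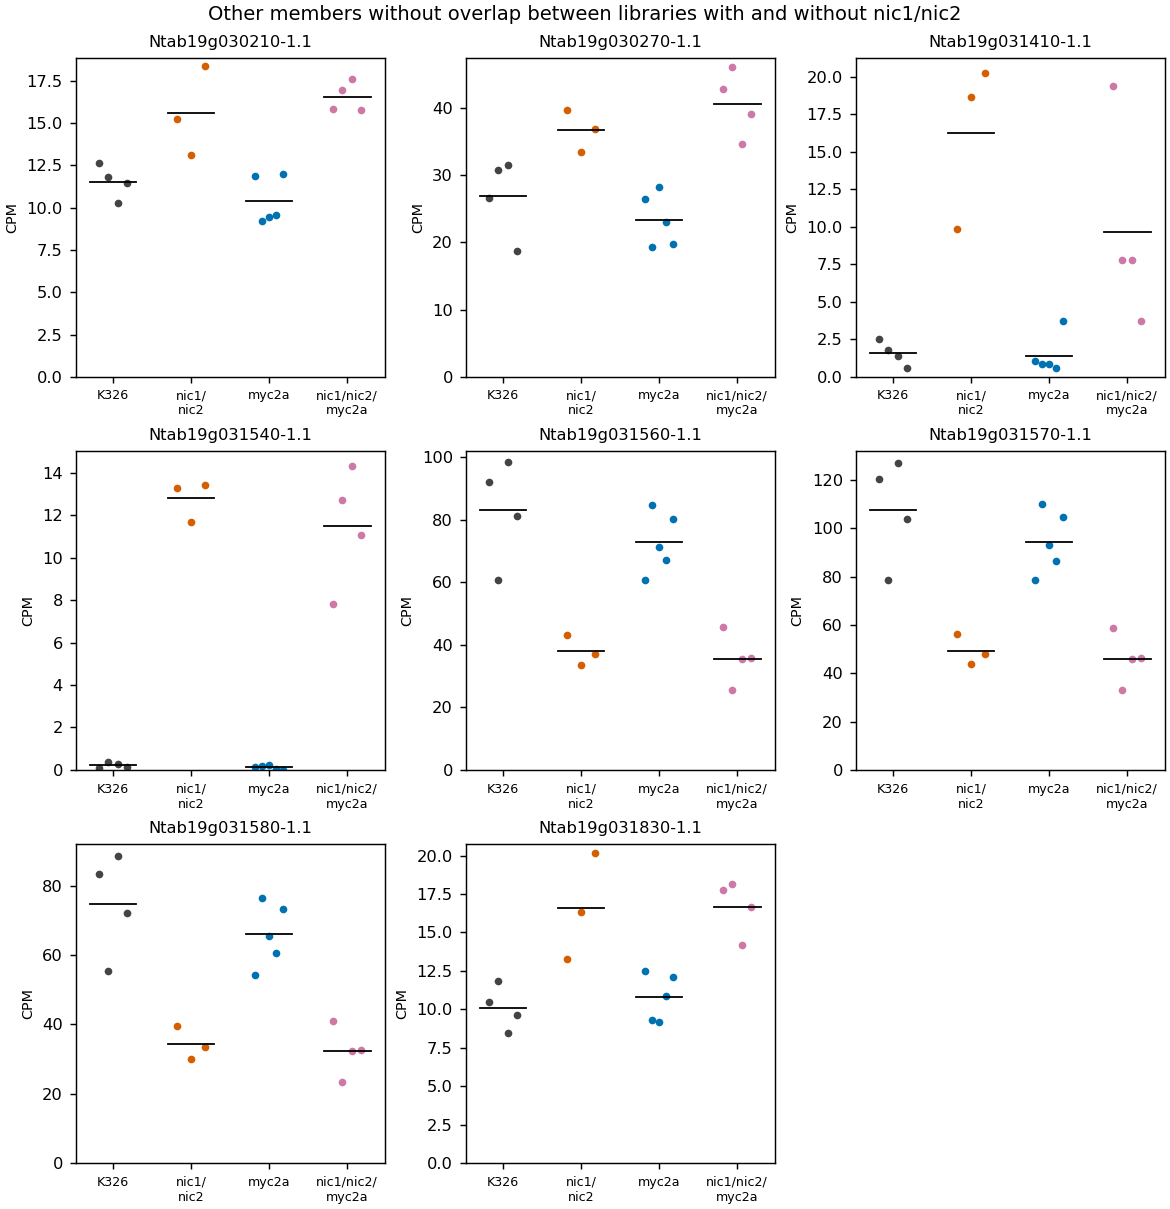
Level in CPM (vertical axis, linear from 0, a scale of its own in each panel) of the 8 members outside the run whose libraries with nic1/nic2 do not overlap those without, with 1 point per library and a bar at the group mean. Ntab19g031540-1.1 is under 0.4 CPM in all libraries of K326 and myc2a and at 7.83 to 14.3 CPM in the 7 others. Ntab19g031560-1.1, Ntab19g031570-1.1 and Ntab19g031580-1.1 show nearly the same pattern over the libraries.

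Further members were called in only 1 of the genotypes with nic1/nic2. Ntab19g030810-1.1 was at 233, 150, 167 and 155 CPM in K326 and at 59.8, 77.1, 115 and 47.0 CPM in nic1/nic2/myc2a, a log2 fold change of -1.24 ± 0.24 (SE). In nic1/nic2 it was at 133, 116 and 105 CPM, below all K326 libraries and overlapping nic1/nic2/myc2a. Neighbours Ntab19g030690-1.1 and Ntab19g030700-1.1 were higher in nic1/nic2/myc2a, by 1.01 ± 0.21 and 1.17 ± 0.19 on the log2 scale. Ntab19g030700-1.1 was at 7.59 to 8.52 CPM in K326, 12.7 to 14.9 in nic1/nic2, 7.18 to 13.8 in myc2a and 15.2 to 21.7 in nic1/nic2/myc2a, so the ranges of myc2a and nic1/nic2 overlapped. Ntab19g031760-1.1 was called in nic1/nic2 alone (0.79 ± 0.16), from 4.70 to 6.57 CPM in K326 to 8.90 to 11.4. Of these 4 members, only Ntab19g030700-1.1 kept its call under all 25 alternatives. The call was lost under 12 of them for Ntab19g030810-1.1, 14 for Ntab19g030690-1.1 and 8 for Ntab19g031760-1.1, among them the fits without K326 replicate 1, 2 or 4 for all 3. A difference of these members between nic1/nic2 and nic1/nic2/myc2a was not past the threshold.

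Presence and absence of counts picked mostly sparse members, of which Ntab19g030530-1.1 alone was among those called. Of the members, 6 (1.99%) had no count in the 7 libraries with nic1/nic2 and at least 10 in the other 9. This pattern was found in 393 gene models (0.617%) of the whole table. The 6 were 5 members of the run and Ntab19g031790-1.1, which had 18 counts in K326 and 56 in myc2a but was also at 0 in 1 library of each. The values of the run chose the neighbourhood, so nothing is read from this count. The reverse pattern held for 101 gene models in all (0.159%) and 1 member (0.332%). This was Ntab19g031650-1.1, with 9 counts in nic1/nic2, all in replicate 2, and 8 in nic1/nic2/myc2a. The counts of Ntab19g031650-1.1 were too few to tell its groups apart.

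The comparison of nic1/nic2/myc2a with myc2a shares no library with that of nic1/nic2 with K326, so both give the difference with nic1/nic2 in separate libraries, with and without myc2a. Both come from the same fit to all genotypes, so the filter, the scaling and the estimate of the spread are shared and their calls are not independent. The comparison with myc2a was added after the data had been seen, and the libraries of nic1/nic2/myc2a were used to choose the run, so it is a description too. In it 11 members were called, 6 higher and 5 lower, with 0.358% of all gene models called. Of these, 7 were also called in nic1/nic2 against K326, all in the same direction: the 2 near absent gene models, Ntab19g031410-1.1, Ntab19g031540-1.1 and the 3 gene models that moved as 1. The count was 19 without myc2a replicate 1 and 4 without nic1/nic2/myc2a replicate 1 or 2 or without myc2a replicate 4, and Ntab19g031540-1.1, Ntab19g031560-1.1, Ntab19g031570-1.1 and Ntab19g031580-1.1 kept their calls under all alternatives. Without K326 replicate 3 or myc2a replicate 5 the count was 7, and without myc2a replicate 2 or 3 or nic1/nic2/myc2a replicate 4 it was 5. The other 3 calls shared with nic1/nic2 against K326 were often lost: that of Ntab19g030530-1.1 under 13 of 23 alternatives, among them those without any 1 K326 library, that of Ntab19g030590-1.1 under 14 of 25 and that of Ntab19g031410-1.1 under 10 of 25.

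The members called against myc2a alone lay mostly below the run. Ntab19g030210-1.1 was at 9.21 to 12.0 CPM in myc2a and 15.7 to 17.6 in nic1/nic2/myc2a, Ntab19g030220-1.1 at 4.07 to 10.8 and 15.5 to 19.2, and Ntab19g030270-1.1 at 19.4 to 28.3 and 34.7 to 46.1. Ntab19g031820-1.1, above the run, was at 3.36 to 6.38 and 7.36 to 11.9 CPM. Each of these 4 calls was lost under 8 to 10 alternatives, among them those without nic1/nic2/myc2a replicate 1, 2 or 4, myc2a replicate 4, and the fit of both genotypes alone.

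Among the 198 members of at least 1 CPM, which leave out the run, the log2 fold changes of these comparisons had the same sign for 56.1%, beside 59.5% of all 37348 gene models of that level.

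**Figure D4:**
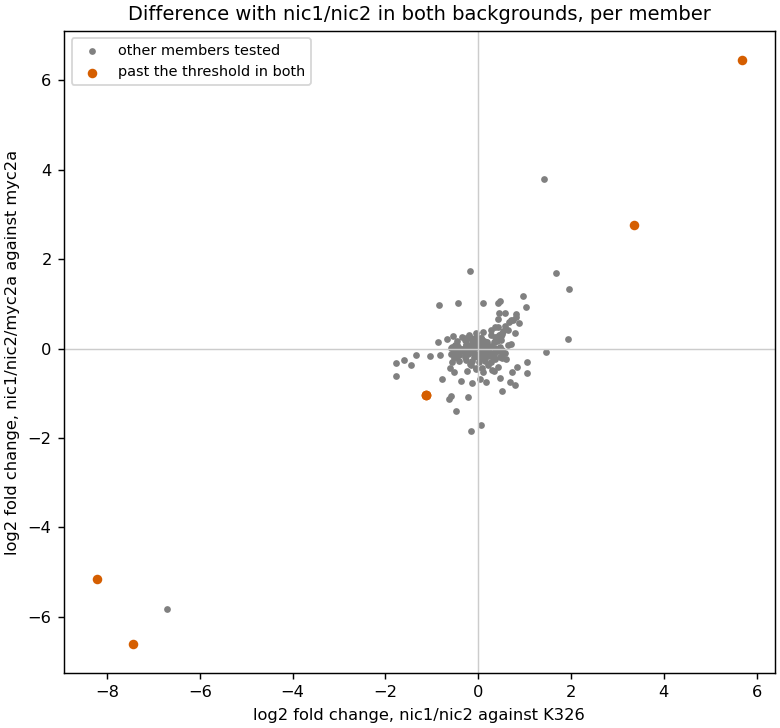
Log2 fold change of nic1/nic2 against K326 (horizontal axis) and of nic1/nic2/myc2a against myc2a (vertical axis), 1 point per tested member, with the 7 members past the threshold in both in orange, of which 3 coincide at about -1.1. The fitted values of gene models without counts in a group depend on the prior count of the fit and are no measure of size.

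The effect of myc2a on the neighbourhood was asked in a contrast that the choice of members had not used. Of the 225 members, edgeR called 0 in myc2a against K326, where 0.17% of all gene models were called, and DESeq2 and limma-voom also called 0. At an unadjusted p under 0.05 there were 14 members, 6.22% of those tested, against 5.21% of all gene models. The smallest adjusted p (edgeR) was 0.36, for Ntab19g030490-1.1 beside the run, with a log2 fold change of 0.66 ± 0.19 (SE). For the run itself, Ntab19g030530-1.1 differed in myc2a by -0.85 ± 0.66 and Ntab19g030590-1.1 by -0.62 ± 0.69 on the log2 scale, within the spread between libraries. Both passed the filter on low counts only through libraries of K326 and myc2a, so these differences of the run are a description. Ntab19g031540-1.1 differed by -0.92 ± 0.51, Ntab19g031570-1.1 by -0.19 ± 0.17 and Ntab19g031410-1.1 by -0.15 ± 0.55, none past the threshold. In simulated data this comparison recovered 47% of 2-fold and 90% of 4-fold changes, so 2-fold and smaller differences in myc2a may have been missed. The changed gene models of the simulation all had a mean above 1 CPM, so these shares do not hold for the members of the run. At such low levels larger differences may have been missed too.

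Between both genotypes that carry nic1/nic2, edgeR likewise called 0 of the 225 members in nic1/nic2/myc2a against nic1/nic2, with 0.405% of all gene models called. An unadjusted p under 0.05 was reached by 25 members, 11.1%, against 13.2% of all gene models, while DESeq2 called 2 members (Ntab19g029900-1.1 and Ntab19g031330-1.1) and limma-voom 0. The smallest adjusted p (edgeR) was 0.156, for Ntab19g029900-1.1 (log2 fold change -0.51 ± 0.14, SE). Without nic1/nic2/myc2a replicate 2 this member was called (adjusted p = 0.0471, edgeR), and Ntab19g030380-1.1 was called without myc2a replicate 5 (0.0488). Ntab19g031540-1.1 differed between these genotypes by -0.16 ± 0.37, Ntab19g031570-1.1 by -0.10 ± 0.19 and Ntab19g031410-1.1 by -0.75 ± 0.57 on the log2 scale. The rule used the low run in both genotypes, so its likeness there is no result. The interaction is the difference between the nic1/nic2 effects with and without myc2a. It was past the threshold for 0 of 225 members by edgeR, DESeq2 and limma-voom (0.235% of all gene models by edgeR). In edgeR, 18 members had an unadjusted p under 0.05, 8% against 9.86% of all gene models. Its smallest adjusted p (edgeR) was 0.376.

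Along the neighbourhood, differences with nic1/nic2 were spread over blocks of 500 serial numbers as follows. Of members with a mean of at least 1 CPM, more than 2-fold differences from K326 in nic1/nic2 numbered 0 of 35 in the first block, 1 of 33 in the second, 2 of 25 in the third, 3 of 33 in the fourth, 4 of 34 in the fifth and 1 of 38 in the last. In nic1/nic2/myc2a they numbered 0, 2, 3, 3, 4 and 0 in the same blocks. In myc2a there was 1 in all, in the fourth block. Over all members the share was 5.56, 6.06 and 0.505% in nic1/nic2, nic1/nic2/myc2a and myc2a, beside 4.66, 3.42 and 1.36% of all gene models of that level. In both genotypes with nic1/nic2 the fifth block held Ntab19g031540-1.1 and the jointly moving Ntab19g031560-1.1, Ntab19g031570-1.1 and Ntab19g031580-1.1. Its count and these shares therefore stand for fewer separate measurements.

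Of the 5 members with the highest counts, Ntab19g030810-1.1, described above, was called. Ntab19g032420-1.1 was at 191 ± 21.3 CPM in K326 and 202 ± 46.5 in myc2a, beside 259 ± 30.4 in nic1/nic2 and 236 ± 21.0 in the triple recessive. Ntab19g030880-1.1 was at 209 ± 10.4 CPM in K326 and 149 ± 10.6 in nic1/nic2, while its myc2a libraries ranged from 153 to 271 CPM. Neither these nor Ntab19g031490-1.1 and Ntab19g031920-1.1 passed the threshold in any comparison.

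Outside the neighbourhood, the gene models whose log2 CPM followed the 2 near absent members most closely over the 16 libraries were named by their Pearson correlation. Ntab07g012920-1.1 had the highest (0.914), at 3.34 ± 0.90 CPM in K326, 1.49 ± 0.64 in myc2a and without counts in both genotypes with nic1/nic2. Next came Ntab06g021890-1.1 (0.912), Ntab04g010910-1.1 (0.910), Ntab21g008710-1.1 (0.905) and Ntab08g023550-1.1 (0.905). These were not absent with nic1/nic2: Ntab06g021890-1.1 was at 923 ± 464 CPM in K326, 408 ± 83.3 in myc2a and 72.6 ± 12.4 in nic1/nic2, and Ntab08g023550-1.1 at 432 ± 457, 131 ± 29.3 and 4.33 ± 1.97 CPM.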

How the data were processed

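The submitters' processing notes list FastQC, HISAT2 (version 2.1.0), SAMtools and bedtools. How reads were counted, and on which genome build and annotation, is not given in the sources used here. Values in the authors' deposited table were whole-number counts per gene model and library. Between 59.7 and 65.6% of counts from 1 to under 200 were even, so mates of a pair may have been counted separately, and counting intervals are then too narrow. Columns were matched by name; those of nic1/nic2/myc2a have their letters in another order than the titles. There were 0 unused columns.

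Counts were filtered with filterByExpr, scaled by TMM and fitted with 1 mean per genotype over all 16 libraries (edgeR 4.0.16 in R 4.3.3, quasi-likelihood test, 12 residual degrees of freedom). P-values were adjusted by Benjamini-Hochberg over all 43009 gene models, with a threshold of 0.05. Alternatives included DESeq2 1.42.0, limma-voom (limma 3.58.1), other scalings, no filter, a replicate block and leaving out libraries. The fit was checked on simulated data with 200 changed gene models, all with a mean above 1 CPM. In nic1/nic2 against K326, 39% of 2-fold and 85% of 4-fold changes were recovered, and in nic1/nic2/myc2a against nic1/nic2, 37% and 83%.

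Members and lists were chosen with earlier results of these data known. Named were the gene models of the choosing range, near absent members, members called in both genotypes with nic1/nic2, the strongest called in 1 of them, members flanking the run, those with the highest counts, and the outside gene models most alike; members called against myc2a and those named for presence or non-overlap were added after the values were seen.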

Additional observations from a re-analysis of the deposited data

Results flagged for a closer look

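By chance about 1 in 20 sets would have a library far from the others, but that rate does not hold for sets with few counts or for members that move together. Among 88 sets of 4 or 5 libraries of the 34 named members, 7 had such a library, a number that is not set against that rate. Of these, 5 lay in the run, where counts were few. There myc2a replicate 2 was the highest of its group in Ntab19g030550-1.1 and in Ntab19g030560-1.1 (0.0516 CPM each). In Ntab19g030580-1.1 (0.598 CPM, 22 counts) and Ntab19g030620-1.1 (0.217 CPM, 8 counts) it was myc2a replicate 3. In Ntab19g030590-1.1 it was nic1/nic2/myc2a replicate 4 (0.0603 CPM). In Ntab19g031410-1.1, myc2a replicate 5 stood above its group at 3.73 CPM. In Ntab19g031760-1.1, K326 replicate 1 was below the others at 4.70 CPM.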

How the results depend on the processing

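No called member changed direction under any alternative. The count of members called in nic1/nic2 against K326 was 5 with the replicate block, 4 when K326 replicate 2 was left out together with nic1/nic2 replicate 3, 17 with DESeq2 and 3 to 11 when libraries were left out singly, beside 8. In nic1/nic2/myc2a against K326 it was 15 with only both genotypes in the fit, 21 with DESeq2 and 5 to 12 without single libraries, beside 9. The 21 members called by DESeq2 did not include Ntab19g030530-1.1 or Ntab19g030590-1.1. In nic1/nic2/myc2a against myc2a it was 6 with the replicate block, 4 with only both genotypes, 18 with DESeq2 and 4 to 19 without single libraries, beside 11. In nic1/nic2/myc2a against nic1/nic2 it was 2 with DESeq2 and 0 to 1 without single libraries, beside 0. In myc2a against K326 and for the interaction it stayed 0 under every alternative run. The cause of these moves was not tested.

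Scaled by library size alone, the median log2 ratio in nic1/nic2 was 0.15 below the run and 0.059 above it, in place of 0.07 and -0.02. The number of near absent members stayed 2 under each threshold tried. Leaving out single libraries turned the sign of uncalled differences of Ntab19g031410-1.1 in myc2a against K326 (range -0.90 to 0.15; 0.15 without K326 replicate 1, 0.05 without myc2a replicate 4) and of Ntab19g031570-1.1 in nic1/nic2/myc2a against nic1/nic2 (range -0.24 to 0.030; 0.02 without nic1/nic2 replicate 1, 0.030 without nic1/nic2/myc2a replicate 2).

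Same-numbered libraries of different groups deviated together no more than others (median correlation -0.02 over 21 pairs, -0.30 to 0.30). Only 3 of 16 libraries correlated best with their own number. No pairing by replicate number was seen, but groups this small may not show one. At these depths, levels under about 0.09 CPM in a library cannot be told from 0.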
